A study of Mus musculus with 12 samples.

Results

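RNA of mouse embryonic fibroblasts (MEFs) lacking the retinoblastoma family was compared with and without a mutated Ras, across all genes on the array. The comparison sets the 3 arrays labelled TKO-Ras against the 3 labelled TKO, 6 of the 12 arrays of the series, and reads 18193 genes from 1 probe set each, the one with the highest mean over the 12 arrays. TKO MEFs carry deletions of Rb1 and of the genes for p107 (Rbl1) and p130 (Rbl2). TKO-Ras MEFs carry the same deletions together with the allele RasG12D, so the deletions are shared by both groups. The other arrays are 3 of wild type (WT) MEFs and 3 of MEFs with the Rb1 deletion alone (Rb1KO). They entered the fit, which shares 1 estimate of the spread over the 4 groups. All cultures were collected during exponential growth and without treatment.

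The labels do not say which Ras gene carries the change, nor how it was brought into the cells, and they call the replicates biological without saying whether they come from separate embryos, cultures or clones. P-values therefore measure the spread between these RNA samples. None of the targeted genes differed between the groups at an adjusted p under 0.05. Rb1 was 6.97, 7.02 and 7.43 on the log2 scale on the TKO arrays and 7.45, 7.66 and 7.58 on the TKO-Ras arrays (adjusted p = 0.124). Its groups do not overlap, and the adjusted p was 0.044 in a limma fit with array weights. Rbl1 was at background on all 6 arrays, and Rbl2 lay between 5.27 and 5.71 in TKO and between 4.60 and 5.35 in TKO-Ras MEFs (adjusted p = 0.326).

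Ras proteins are small GTPases that relay growth factor signals from receptors to the kinases RAF, MEK and ERK. The G12D change slows GTP hydrolysis and keeps Ras in its active form. ERK activity induces its own brakes, among them the dual-specificity phosphatases (Dusp), the Sprouty (Spry) and Spred proteins, together with ETS factors such as Etv4 and Etv5. The retinoblastoma family holds E2F factors in check, and in normal fibroblasts strong Ras activity leads to an arrest that depends on it. Fibroblasts make collagens and other matrix proteins, contractile actin fibres and, when stimulated, chemokines through NF-kappaB.

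The values are log2 signals made by RMA, which normalizes the arrays to each other, and differences below are TKO-Ras minus TKO. A gene was called at a Benjamini-Hochberg adjusted p under 0.05 from limma, the source of every adjusted p below, and the groups of 3 arrays limit the precision. Without detection calls, 5.13 was taken as the background level, and where every array of a group was at or below it a fold is given as a lower bound. Pairs of TKO arrays correlated at r = 0.9907 to 0.9937 and pairs of TKO-Ras arrays at 0.9904 to 0.9954. Among the WT arrays, which enter the shared spread, replicate 3 correlated with replicates 1 and 2 at only 0.9777 and 0.9695. Replicates 1 and 2 correlated at 0.9946. TKO replicate 1 lay closer to the TKO-Ras arrays (0.9839 to 0.9847) than the other TKO arrays did (0.9774 to 0.9796). It was the TKO array nearest to the TKO-Ras mean for 106 of the 203 genes called at least 2-fold higher and for 261 of the 428 called at least 2-fold lower.

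More genes fell than rose in TKO-Ras MEFs. Of the 18193 genes, 580 were called higher in TKO-Ras MEFs (3.19%) and 759 lower (4.17%). With a change of at least 2-fold, 203 were called higher (1.12%) and 428 lower (2.35%). The 3 TKO and 3 TKO-Ras arrays do not overlap for 31.3% of all genes, so that non-overlap alone is common. Changes of at least 8-fold were found for 20 higher and 48 lower genes. The median log2 difference over all genes was 0.04, with quartiles of -0.14 and 0.18. The counts depend on the arrays: 1339 genes were called in all, 747 without TKO replicate 2, 822 without TKO replicate 3, 813 without TKO-Ras replicate 1, 800 without TKO-Ras replicate 3 and 2144 without WT replicate 3, which enters through the shared spread.

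The negative feedback genes of the ERK pathway were higher in TKO-Ras MEFs. Of 16 measured members of this list 10 rose, against 3.19% of all genes, and 2 fell, against 4.17%. The other 4 did not pass, and the median log2 difference of the list was 1.27. Dusp6, a phosphatase that acts on ERK, was 8.21, 8.04 and 7.50 on the TKO arrays and 10.38, 10.53 and 10.35 on the TKO-Ras arrays. The groups do not overlap, and the log2 difference was 2.50 ± 0.448 (standard error, n = 3 arrays a group, adjusted p = 0.00745). Spry4, an inhibitor of receptor signalling, was at background in TKO MEFs (4.24, 4.77 and 3.47) and at 6.92, 6.12 and 7.10 in TKO-Ras MEFs, at least 2.99-fold higher (adjusted p = 0.00435). Etv5, an ETS transcription factor, was 6.76, 7.32 and 6.76 in TKO and 8.97, 9.44 and 8.95 in TKO-Ras MEFs (log2 difference 2.18 ± 0.403, adjusted p = 0.009). The 3 Spred genes, inhibitors of RAF activation, rose by less but with little spread, and every TKO-Ras array lay above every TKO array. Spred1 went from a mean of 9.71 to 10.51 (adjusted p = 0.00085), Spred2 from 9.16 to 10.13 (adjusted p = 0.00096) and Spred3 from 5.58 to 6.24 (adjusted p = 0.0103).

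Other feedback genes rose by calls close to the threshold. Dusp4 was 6.03, 5.75 and 5.94 in TKO and 9.23, 8.99 and 8.99 in TKO-Ras MEFs, a log2 difference of 3.16 with an adjusted p of only 0.0411. Its arrays agree closely within both groups, but the spread is shared with the other genotypes, and the call was lost in 9 of 12 fits that left out 1 array (adjusted p up to 0.13, without TKO replicate 2) and held without each WT array. The log2 difference stayed between 3.08 and 3.23 in these fits. Etv4, another ETS factor, went from a mean of 6.81 ± 0.38 (SD, n = 3) to 8.53 ± 0.40 without overlap (log2 difference 1.72, adjusted p = 0.0238), a call lost without TKO replicate 2 or 3 or TKO-Ras replicate 1 or 3 (up to 0.097). Spry1 (log2 difference 1.34, adjusted p = 0.034) and Spry2 (1.29, adjusted p = 0.0299) lost their calls in 8 and 5 such fits, with adjusted p up to 0.12 without TKO-Ras replicate 1 and 0.11 without TKO-Ras replicate 3. The list had 6 higher members without TKO replicate 3 or without TKO-Ras replicate 1, and at most 12.

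The members that went the other way were Spry3 and Il17rd. Il17rd, a membrane inhibitor of FGF signalling also known as Sef, was 6.79, 7.41 and 7.64 in TKO and 5.60, 6.09 and 5.71 in TKO-Ras MEFs (log2 difference -1.48, adjusted p = 0.0456), and its call was lost in 9 of the 12 fits (up to 0.16, without TKO replicate 3). Spry3 was at background in TKO-Ras MEFs and above it on only 1 TKO array, with no fold given, and lost its call without TKO-Ras replicate 1 (0.06) or 2 (0.051). Dusp5 had a log2 difference of 1.69 (adjusted p = 0.0524) and Errfi1, an inhibitor of the EGF receptor, of 1.24 (adjusted p = 0.0596), with no overlap between the groups. Dusp5 passed without Rb1KO replicate 2 (0.047) or WT replicate 2 (0.031) or 3 (0.016), and Errfi1 without Rb1KO replicate 2 (0.041), TKO replicate 2 (0.044) or WT replicate 3 (0.045). Dusp7 (log2 difference 0.26) and Phlda1 (0.45) did not pass either, and the TKO and TKO-Ras arrays of Phlda1 overlapped.

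**Figure D1:**
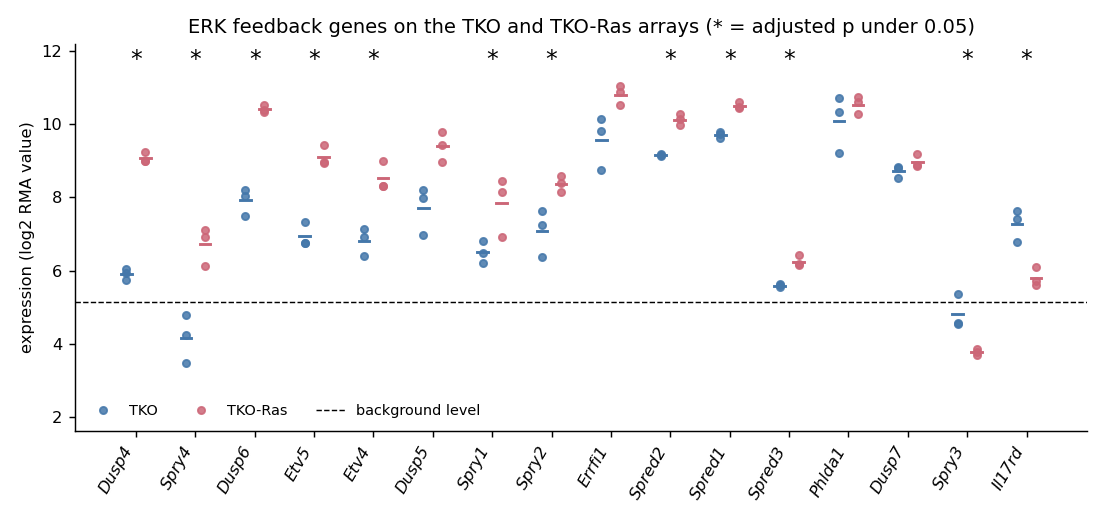
Log2 RMA values of the 16 measured ERK feedback genes on the 3 TKO and 3 TKO-Ras arrays (points, with bars for group means), ordered by the difference between groups; stars mark adjusted p under 0.05 and the dashed line the background level of 5.13. Among genes above background in both groups Dusp4 and Dusp6 show the largest differences, 3.16 and 2.50 on the log2 scale, and Spry3 and Il17rd are the 2 genes that were lower in TKO-Ras.

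Most genes of the pathway itself did not pass, beside 3.19% called higher and 4.17% called lower among all genes. Of 6 measured Ras family GTPases 0 passed in limma (1 at an unadjusted p under 0.05), with log2 differences from -0.22 to 0.43. Nras was 10.63, 10.34 and 10.15 in TKO and 10.92, 10.68 and 10.79 in TKO-Ras MEFs (log2 difference 0.43, adjusted p = 0.11; 0.049 without TKO replicate 1). Of 15 genes from the adaptors down to the kinases below ERK, 2 fell and 13 did not pass, and the median difference was -0.06. Gab1, a docking protein that links receptors to the Ras pathway, was 7.79, 8.02 and 8.56 in TKO and 6.70, 6.95 and 6.95 in TKO-Ras MEFs (log2 difference -1.26, adjusted p = 0.00609). The RAF kinase gene Braf fell by 0.74 on the log2 scale (adjusted p = 0.0245), a call lost without TKO replicate 2 or 3 or TKO-Ras replicate 2 or 3 (up to 0.099) and at -0.32 when its probe sets were averaged. Of 14 exchange factors and GTPase-activating proteins only Rasa2, which promotes GTP hydrolysis by Ras, passed, at 8.97, 9.10 and 8.98 in TKO and 9.89, 9.81 and 9.84 in TKO-Ras MEFs (log2 difference 0.83, adjusted p = 0.00196).

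The immediate-early genes, the first transcripts that follow ERK activation, did not rise as a group. Of 25 measured, 1 rose (3.19% of all genes), 2 fell (4.17%) and 22 did not pass, with a median of -0.21. Fosl2, an AP-1 subunit, was 11.11, 11.24 and 11.19 in TKO and 9.57, 9.49 and 9.69 in TKO-Ras MEFs (log2 difference -1.60 ± 0.124, adjusted p = 3e-05). Its other probe set, at means of 6.11 in TKO and 6.19 in TKO-Ras MEFs, gave 0.08 (adjusted p = 0.701). Jun, the partner of Fosl2 in AP-1, was 10.29, 10.42 and 9.22 in TKO and 11.27, 11.21 and 11.02 in TKO-Ras MEFs (log2 difference 1.19, adjusted p = 0.0388). The call of Jun was lost in 6 of the 12 fits that left out 1 array (up to 0.12, without TKO-Ras replicate 1). Btg2, an antiproliferative gene that is also a p53 target, fell by 1.39 on the log2 scale (adjusted p = 0.0474), and its call was lost in 8 of the 12 (up to 0.17, without TKO replicate 2).

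Ligands of the EGF receptor family, several of which are induced by Ras in other cells, differed by member. Of the 13 ligands, receptors and sheddases measured, 2 rose (3.19% of all genes), 1 fell (4.17%) and 10 did not pass. The ligand Btc was at background in TKO MEFs (4.74, 4.55 and 4.46) and at 5.82, 5.95 and 6.05 in TKO-Ras MEFs, at least 1.75-fold higher (adjusted p = 0.00506). The receptor Erbb3 was 5.43, 5.17 and 5.71 in TKO and 6.28, 7.04 and 6.24 in TKO-Ras MEFs (log2 difference 1.09, adjusted p = 0.0137; 0.066 without TKO replicate 2). The ligand Nrg1 was 7.74, 8.05 and 7.47 in TKO and 6.16, 6.65 and 6.90 in TKO-Ras MEFs (log2 difference -1.19, adjusted p = 0.02), a call lost without TKO replicate 1 (0.054) or 2 (0.088) or TKO-Ras replicate 1 (0.081). Hbegf had a log2 difference of 1.62 (adjusted p = 0.358) and Ereg of 1.20 (adjusted p = 0.523), with every TKO-Ras array above every TKO array for both. Egfr itself showed 0.07 (adjusted p = 0.842), Erbb2 -0.09, Adam17 0.09, Tgfa 0.07 and Nrg2 0.33, while Egf, Epgn and Erbb4 were at background in both groups. The value of Egfr depends on the probe set: with only probe sets without a suffix it was -1.44 (adjusted p = 0.029).

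Mycn, a Myc family transcription factor of embryonic and neural tissue, had the smallest p of all genes. It was 6.66, 6.63 and 6.58 on the TKO arrays and 13.07, 13.39 and 13.09 on the TKO-Ras arrays (log2 difference 6.56 ± 0.117, adjusted p = 1.8e-10). The TKO level was like that in WT (mean 6.36) and Rb1KO MEFs (6.70), so the gene stood out in TKO-Ras MEFs alone. This value comes from 1 of 3 probe sets. The others showed log2 differences of 0.09 between means of 3.02 and 3.12 and of 0.21 between 5.11 and 5.32, both close to or below background. The 12 genes above background among its 10 neighbours on either side had log2 differences between -0.12 and 0.96, and 0 of them passed in limma. Of the 12 genes of the Myc and Max network, Myc itself showed 0.31 (adjusted p = 0.811) and Mycl -0.67 (adjusted p = 0.246). Mxd4, an antagonist of Myc, was 7.47, 7.30 and 7.52 in TKO and 6.26, 6.01 and 6.31 in TKO-Ras MEFs (log2 difference -1.24, adjusted p = 0.00979; -0.54 with an adjusted p of 0.22 on probe sets without a suffix).

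Of 15 G1 cyclins, kinases and inhibitors 1 rose (3.19% of all genes) and 1 fell (4.17%), Ccnd1 and Ccnd2. The third D-type cyclin, Ccnd3, did not pass. Ccnd1, a G1 cyclin that ERK signalling is known to induce, was 10.99, 11.17 and 10.54 in TKO and 12.60, 12.40 and 12.72 in TKO-Ras MEFs (log2 difference 1.67, adjusted p = 0.0156), and rose on all 3 of its probe sets. Ccnd2 was 10.08, 10.57 and 10.42 in TKO and 8.54, 8.92 and 8.73 in TKO-Ras MEFs (log2 difference -1.63, adjusted p = 0.0233). The groups do not overlap for either gene. The call of Ccnd1 was lost without TKO replicate 3 or TKO-Ras replicate 1 or 3 (up to 0.067) and that of Ccnd2 without TKO replicate 2 or 3 or TKO-Ras replicate 1 or 3 (up to 0.093). Of 31 genes of DNA replication and nucleotide synthesis only Tyms passed (log2 difference -0.87, adjusted p = 0.0302), with -0.13 when its probe sets were averaged and its call lost without TKO replicate 1 or 2 or TKO-Ras replicate 2 or 3 (up to 0.12). Of 28 mitosis genes 0 passed in limma (3 at an unadjusted p under 0.05), with log2 differences from -0.38 to 0.52 and a median of 0.00. Of 10 E2F and DP genes 2 rose (3.19% of all genes), E2f8 from a mean of 9.43 to 10.38 (adjusted p = 0.00398) and E2f2 from 7.03 to 7.80 (adjusted p = 0.00652). The inhibitor Cdkn1a, known as p21, showed 0.04 (adjusted p = 0.978). Of 26 p53 targets 1 rose (3.19% of all genes) and 2 fell (4.17%), or 3 and 4 without WT replicate 3. The 2 that fell were Btg2 and the death receptor Fas. Fas went from 8.25, 9.03 and 8.75 to 5.83, 5.71 and 6.04 (log2 difference -2.82 ± 0.247, adjusted p = 7.4e-05). The kinase gene Plk3 rose from a mean of 7.04 to 8.18 (adjusted p = 0.00247).

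The genes that rose most were of many kinds, and most of them were low in TKO MEFs. Car8, a carbonic anhydrase-related protein of the cerebellum, had the largest increase, from 6.13, 3.78 and 4.78 to 11.64, 12.04 and 12.14 (log2 difference 7.04 ± 0.498, adjusted p = 1.4e-05), and 2 of its TKO arrays were below background. Esm1, a proteoglycan secreted by endothelium, was at background on the TKO arrays and at 8.16, 8.15 and 9.14 on the TKO-Ras arrays, at least 10.2-fold higher (adjusted p = 3.2e-07). The B cell adaptor gene Blnk went from 4.98, 4.49 and 5.19 to 8.76, 8.79 and 9.60 (log2 difference 4.16, adjusted p = 2.9e-06), again with 2 TKO arrays below background. Their means in WT and Rb1KO MEFs were also below background, between 3.07 (Esm1 in WT) and 4.63 (Car8 in WT).

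Alcam and 3110039M20Rik, also among the 15 highest, were not particular to TKO-Ras MEFs in their level. The WT mean lay above the TKO-Ras mean for 2 of the 15. Alcam, an adhesion molecule, was 7.67, 5.19 and 4.53 in TKO and 9.04, 9.84 and 9.45 in TKO-Ras MEFs (log2 difference 3.64, adjusted p = 0.00594), beside means of 10.12 in WT and 9.31 in Rb1KO MEFs. The uncharacterized transcript 3110039M20Rik had a mean of 8.98 in TKO-Ras MEFs, at least 14.3-fold above the TKO background level (adjusted p = 1.4e-07), and of 10.25 in Rb1KO MEFs. Tnnt2, the cardiac troponin T, was 5.23, 4.18 and 4.04 in TKO and 9.20, 9.07 and 7.62 in TKO-Ras MEFs (log2 difference 4.15, adjusted p = 0.0119), and 2 TKO arrays were below background. Its call was lost without TKO replicate 2 or 3 or TKO-Ras replicate 1 (up to 0.054), and its probe set without a suffix gave 0.23. The remaining genes of the 15 were Gpr149, Dkk2, Cst6, Itga6, Tspan12, Junos, Pde3b and Itgbl1. Junos lies opposite Jun on the opposite strand and rose from a mean of 5.15 to 8.41 (adjusted p = 9.6e-07), and how far its probe set reads Jun itself was not tested.

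**Figure D2:**
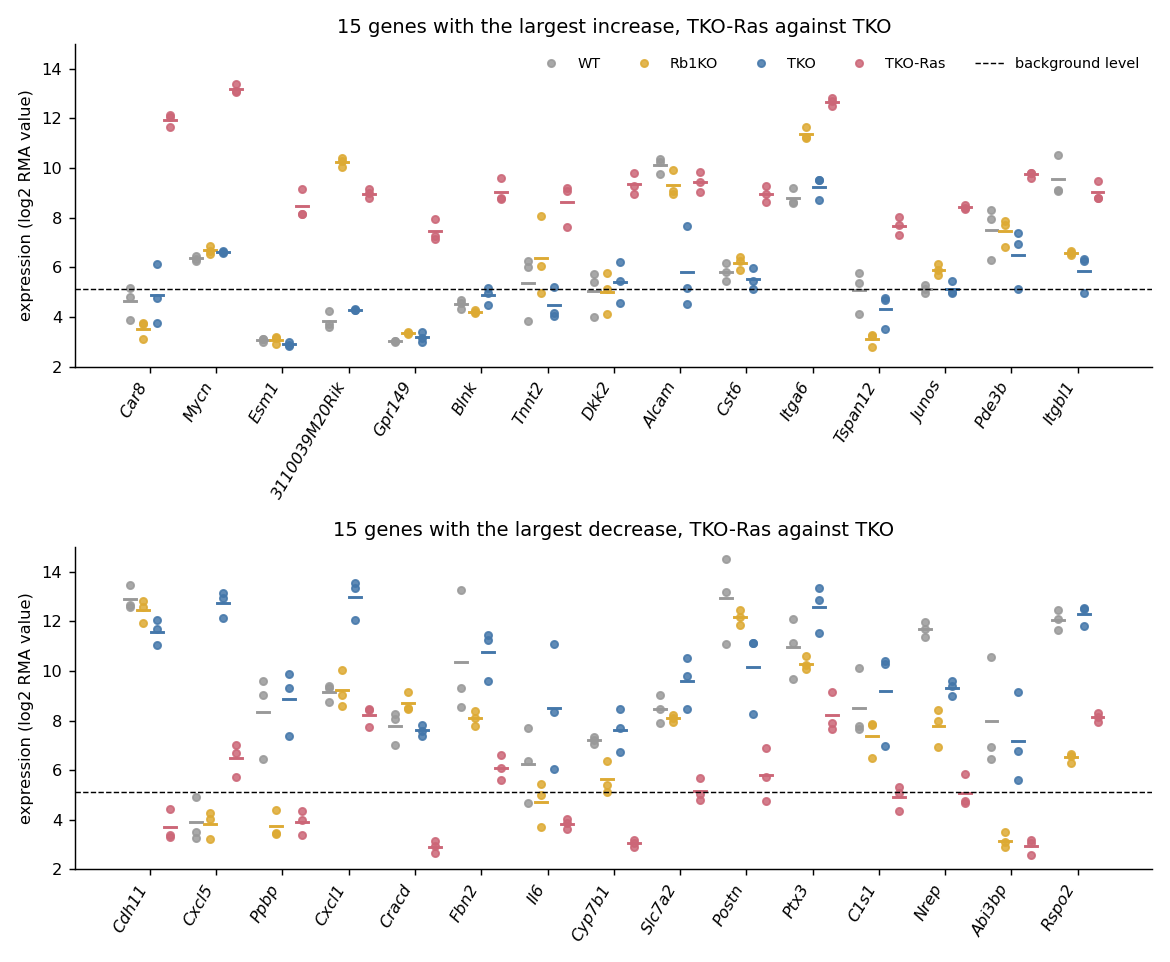
Log2 RMA values of the 15 genes with the largest increase (top) and decrease (bottom) in TKO-Ras against TKO, on the 3 arrays of each of the 4 genotypes (points, with bars for means); the dashed line is the background level of 5.13. Mycn reaches a mean of 13.18 on the TKO-Ras arrays and 6.36 to 6.70 elsewhere, while Cdh11 is at background only on the TKO-Ras arrays.

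Several chemokines of high level in TKO MEFs fell steeply in TKO-Ras MEFs. Of 29 measured chemokines and cytokines 9 fell, all by at least 2-fold (2.35% of all genes), 0 rose in limma and 20 did not pass, 9 of the 29 being at background in both groups. Cxcl5, a chemokine that attracts neutrophils, was 12.13, 13.14 and 12.95 on the TKO arrays and 5.72, 7.02 and 6.68 on the TKO-Ras arrays (log2 difference -6.27 ± 0.473, adjusted p = 2.4e-05). It was at background in WT (mean 3.90) and Rb1KO MEFs (3.84), so its high level was seen in TKO MEFs. Cxcl1, of the same family, was 12.05, 13.52 and 13.34 in TKO and 7.75, 8.43 and 8.47 in TKO-Ras MEFs (log2 difference -4.76 ± 0.423, adjusted p = 8.5e-05), beside means of 9.16 and 9.22 in WT and Rb1KO MEFs. Ppbp, whose gene lies in the same cluster, fell at least 13.3-fold (adjusted p = 0.00366) and reached background on all TKO-Ras arrays.

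The monocyte attractants Ccl2 and Ccl7 fell as well. Ccl2 was 11.47, 12.87 and 12.64 in TKO and 9.07, 8.77 and 9.67 in TKO-Ras MEFs (log2 difference -3.16, adjusted p = 0.0013). Ccl7 was 9.55, 11.26 and 10.52 in TKO and 6.29, 6.12 and 7.28 in TKO-Ras MEFs (log2 difference -3.88, adjusted p = 0.00085). The cytokine Il6 varied most among the TKO arrays, at 6.04, 11.09 and 8.33, and fell at least 10.2-fold (adjusted p = 0.0274) to 3.89, 3.62 and 4.02, all at background, in TKO-Ras MEFs. Its call was lost without TKO replicate 2 or 3 or any 1 of the TKO-Ras arrays (up to 0.082). TKO replicate 1 was the lowest of the TKO arrays for Cxcl5, Cxcl1, Ccl2, Ccl7 and Il6. Il33, a cytokine stored in the nucleus, had the largest positive value of the list, 2.80 (adjusted p = 0.0652), with overlapping groups.

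Some genes of the system of NF-kappaB, a transcription factor known to induce many chemokines, fell as well. The activity of NF-kappaB was not measured. Of 15 measured genes of the NF-kappaB system 6 fell, each by at least 2-fold (2.35% of all genes). In this list 0 rose and 9 did not pass, with a median of -0.58. Nfkbia, the inhibitor that NF-kappaB itself induces, was 12.60, 12.86 and 12.88 in TKO and 11.17, 10.89 and 11.49 in TKO-Ras MEFs (log2 difference -1.59 ± 0.18, adjusted p = 0.00043). The deubiquitinase gene Tnfaip3 went from a mean of 8.46 ± 0.07 (SD, n = 3) to 6.73 ± 0.24 (log2 difference -1.72, adjusted p = 0.00348). The groups do not overlap for either, nor for Vcam1, Nfkbiz and Nfkbie, which fell by 2.01, 1.97 and 1.68 on the log2 scale. The other probe set of Tnfaip3 gave -0.24 (adjusted p = 0.496). The count of the list stayed at 5 or 6 in every alternative, and that of the chemokines between 7 and 12.

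Of the 15 lowest genes 7 have a promoter in the table, and those of 2 are shown because their start regions hold a match to the NF-kappaB site (its 10-letter consensus, searched on both strands), which is in capitals. Each run is the 120 bases before the transcription start on the plus strand in RefSeq, build GRCm38.p6, at chr5:90891125-90891244 for Cxcl1 and chr5:30012994-30013113 for Il6.
Cxcl1: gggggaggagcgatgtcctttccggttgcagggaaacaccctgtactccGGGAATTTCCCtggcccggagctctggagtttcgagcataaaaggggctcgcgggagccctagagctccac
Il6: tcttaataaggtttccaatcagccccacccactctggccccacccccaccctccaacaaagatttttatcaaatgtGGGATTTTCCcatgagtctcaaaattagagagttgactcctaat
Ptx3, also among the 7, holds a match. The capitals begin 71 bases before the start of Cxcl1, where 2 overlapping matches give 11 letters, and 44 bases before that of Il6. In windows of 250 bases before to 50 after the start, the site was found in 9 of the 23 chemokine and cytokine genes with a promoter in the table, in 6 of 12 NF-kappaB genes, in 6 of 19 immediate-early genes and in 0 of 11 ERK feedback genes, beside 5.14% of all 27025 genes. Of the 9 chemokine and cytokine genes with a match 3 were called, Cxcl1, Il6 and Ccl20. The AP-1 letters TGANTCA were in 7 of the 23, in 4 of the 12, in 0 of the 11 and in 8.97% of all. A match is a stretch of letters and not a measured binding site.

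Genes of the extracellular matrix, a main product of fibroblasts, fell in TKO-Ras MEFs. Of 22 collagen genes 9 fell (4.17% of all genes), 2 rose (3.19%) and 11 did not pass, with a median log2 difference of -1.08. Col1a1, a chain of the main fibrillar collagen, was 11.68, 11.72 and 11.81 in TKO and 9.52, 9.51 and 8.82 in TKO-Ras MEFs (log2 difference -2.45 ± 0.186, adjusted p = 2.4e-05). Its partner chain Col1a2 fell by 1.16 on the log2 scale from the high level of 14.24 (adjusted p = 0.00029), and the chains Col5a1 and Col5a2, which join the same fibrils, by 1.12 and 1.08 (adjusted p = 0.00026 and 0.00014). The members that rose were Col8a1, from 10.04, 10.48 and 9.42 to 11.01, 11.47 and 11.22 (adjusted p = 0.0106), and Col6a3, with a log2 difference of 1.20 (adjusted p = 0.0469), a call that was lost in 9 of the 12 fits that left out 1 array (up to 0.16, without TKO-Ras replicate 3).

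Of 31 matrix glycoproteins, proteoglycans and elastic fibre genes 10 fell (4.17% of all genes), 1 rose (3.19%) and 20 did not pass. The median was -0.88, and 5 fell without TKO replicate 2. Ogn, a small proteoglycan, was 10.58, 10.88 and 11.24 in TKO and 7.44, 8.23 and 6.38 in TKO-Ras MEFs (log2 difference -3.55, adjusted p = 0.00326). Fbln5, an elastic fibre protein, was 10.78, 11.17 and 11.14 in TKO and 8.62, 9.37 and 8.70 in TKO-Ras MEFs (log2 difference -2.13 ± 0.254, adjusted p = 0.00061). Lox, the enzyme that crosslinks collagen and elastin, was 13.48, 13.61 and 13.65 in TKO and 11.85, 12.45 and 11.99 in TKO-Ras MEFs (log2 difference -1.48, adjusted p = 0.00212). The laminin chain gene Lamb1 rose, by 0.93 (adjusted p = 0.0156), a call lost without TKO replicate 1 or TKO-Ras replicate 3 (up to 0.069).

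Several of the largest decreases of this list rest on a TKO group that is itself spread. Postn was 8.26, 11.13 and 11.11 in TKO and 6.90, 5.73 and 4.76 in TKO-Ras MEFs (log2 difference -4.37, adjusted p = 0.0168). Fbn2 was 9.61, 11.25 and 11.46 in TKO and 6.63, 6.07 and 5.60 in TKO-Ras MEFs (log2 difference -4.67, adjusted p = 0.0162). Dcn was 8.27, 11.27 and 10.47 in TKO and 5.94, 6.92 and 6.66 in TKO-Ras MEFs (log2 difference -3.49, adjusted p = 0.0143). TKO replicate 1 is the lowest TKO array for all 3, and the groups do not overlap. The calls were lost without TKO replicate 2 or 3, and also without TKO-Ras replicate 3 for Postn (up to 0.078) and Fbn2 (up to 0.07) and without TKO-Ras replicate 1 for Dcn (up to 0.063).

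Contractile genes fell next to the matrix genes. Of 29 contractile and TGF-beta response genes 7 fell (4.17% of all genes), 0 rose and 22 did not pass. The median was -0.28, and 4 fell without TKO replicate 1 or without TKO-Ras replicate 3. Acta2, the smooth muscle actin of activated fibroblasts, was 13.90, 13.95 and 13.80 in TKO and 11.18, 11.36 and 12.05 in TKO-Ras MEFs (log2 difference -2.35 ± 0.218, adjusted p = 0.00011). The actin-binding protein gene Tagln was 12.55, 12.48 and 10.83 in TKO and 8.14, 8.51 and 9.04 in TKO-Ras MEFs (log2 difference -3.39, adjusted p = 0.00645). The myosin light chain gene Myl9 was 9.71, 10.27 and 9.13 in TKO and 5.40, 5.43 and 6.48 in TKO-Ras MEFs (log2 difference -3.93, adjusted p = 0.00019). Tgfb2, a ligand that drives such genes, was 8.89, 8.58 and 8.48 in TKO and 6.15, 6.23 and 6.08 in TKO-Ras MEFs (log2 difference -2.50, adjusted p = 0.00146). The groups do not overlap for any of the 4.

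Some proteases of the matrix fell. Of 23 proteases and inhibitors 5 fell (4.17% of all genes) and 1 rose (3.19%), and between 2 (without TKO-Ras replicate 1) and 8 (without WT replicate 3) fell when 1 array was left out; the count was 3 without TKO replicate 2 or 3, TKO-Ras replicate 3 or WT replicate 1. The gelatinase gene Mmp2 was 9.29, 10.02 and 10.21 in TKO and 8.35, 8.53 and 7.93 in TKO-Ras MEFs (log2 difference -1.57, adjusted p = 0.00499), and Mmp23 fell by 1.78 (adjusted p = 0.00057). Serpinb2, an inhibitor of plasminogen activators, rose at least 2.04-fold from a TKO level that was at background (adjusted p = 0.0223), a call lost without TKO replicate 2 (0.085) or 3 (0.089).

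Interferon response genes had mostly negative differences of which few passed. Of 30 measured 25 had a log2 difference below 0, and the median was -0.99 (0.04 over all genes). In limma 4 fell (4.17% of all genes), 0 rose and 26 did not pass. Ifi35 was 10.20, 10.24 and 10.67 in TKO and 9.29, 9.14 and 9.38 in TKO-Ras MEFs (log2 difference -1.10, adjusted p = 0.00639). Gbp2, an interferon-induced GTPase, was 6.65, 8.42 and 8.41 in TKO and at background in TKO-Ras MEFs, at least 6.46-fold lower (adjusted p = 0.0113), a call lost without TKO replicate 2 or 3 or TKO-Ras replicate 1 (up to 0.056). The count of this list moved with the arrays and the model: it was 14 without WT replicate 3, 15 with only the TKO and TKO-Ras arrays, 2 without TKO replicate 2 or 3 or TKO-Ras replicate 1, and 1 without moderation. Of 13 genes of MHC class I antigen processing 3 fell (4.17% of all genes). The transporter Tap1 fell by 1.23, the loading factor Tapbp by 1.72 and the peptidase Erap1 by 0.72 on the log2 scale (adjusted p = 0.0379, 0.0356 and 0.0314). None of these 3 calls held without TKO replicate 2 or 3, without any 1 of the TKO-Ras arrays or without Rb1KO replicate 3, and 1 held without Rb1KO replicate 1.

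Cell adhesion genes held the largest decrease of all. Cdh11, the cadherin of mesenchymal cells, was 11.03, 12.04 and 11.67 in TKO MEFs and at background in TKO-Ras MEFs (3.30, 4.43 and 3.39), at least 87.2-fold lower (fitted log2 difference -7.87, adjusted p = 9.6e-07), and it fell on both of its probe sets. It was 12.89 in WT and 12.43 in Rb1KO MEFs, so TKO-Ras was the only genotype of the 4 at background. Of 20 cadherins and factors of the epithelial-mesenchymal transition 5 fell (4.17% of all genes) and 1 rose (3.19%), with a median of -0.03. The number that rose was 0 without TKO replicate 2 or 3 or TKO-Ras replicate 1 or 3. The transcription factors Snai2 and Zeb1 fell by 1.55 and 0.76 on the log2 scale (adjusted p = 0.00751 and 0.00415). With the mean of its probe sets Zeb1 was at -0.38 (adjusted p = 0.23). Of the epithelial cadherins, Cdh3 fell by 0.70 (adjusted p = 0.00537), and Cdh1, counted among the 5, was at background in both groups. Of 21 integrins and other surface adhesion genes 4 rose (3.19% of all genes) and 16 did not pass, with a median of 0.13 (7 rose without WT replicate 3). The 1 that fell lost its call in 9 of the 12 fits that left out 1 array. Itga6, the alpha chain of laminin receptors, was 9.53, 9.52 and 8.72 in TKO and 12.51, 12.70 and 12.82 in TKO-Ras MEFs (log2 difference 3.42 ± 0.236, adjusted p = 1.3e-05), and Itga3, of another laminin receptor, was 7.78, 7.32 and 7.66 in TKO and 9.04, 8.60 and 8.84 in TKO-Ras MEFs (log2 difference 1.24, adjusted p = 0.00543).

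Receptors and secreted antagonists of Wnt signalling were among the genes that fell. Of 24 measured Wnt pathway genes 6 fell and 1 rose (4.17% and 3.19% of all genes). The 6 include the Frizzled receptors Fzd1, Fzd8 and Fzd2, and the call of Fzd2 was lost in 10 of the 12 fits that left out 1 array (up to 0.14, without TKO-Ras replicate 3), while the 5 Wnt ligands and the target Axin2 (log2 difference 0.28, adjusted p = 0.512) did not pass. The antagonist gene Dkk2 was 6.22, 5.45 and 4.55 in TKO and 8.96, 9.81 and 9.27 in TKO-Ras MEFs (log2 difference 3.94, adjusted p = 0.00143). The antagonist gene Sfrp1 was 9.37, 10.79 and 10.09 in TKO and 6.98, 7.22 and 6.69 in TKO-Ras MEFs (log2 difference -3.12, adjusted p = 0.00264). The agonist genes Rspo3 and Rspo2, the latter outside the list and among the 15 lowest genes, fell too. Rspo2 was 11.81, 12.54 and 12.50 in TKO and 8.32, 7.96 and 8.15 in TKO-Ras MEFs (log2 difference -4.14 ± 0.233, adjusted p = 3.4e-06), although its other probe set gave -0.24. Rspo3 fell at least 4.97-fold to the background level (adjusted p = 0.0036).

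**Figure D3:**
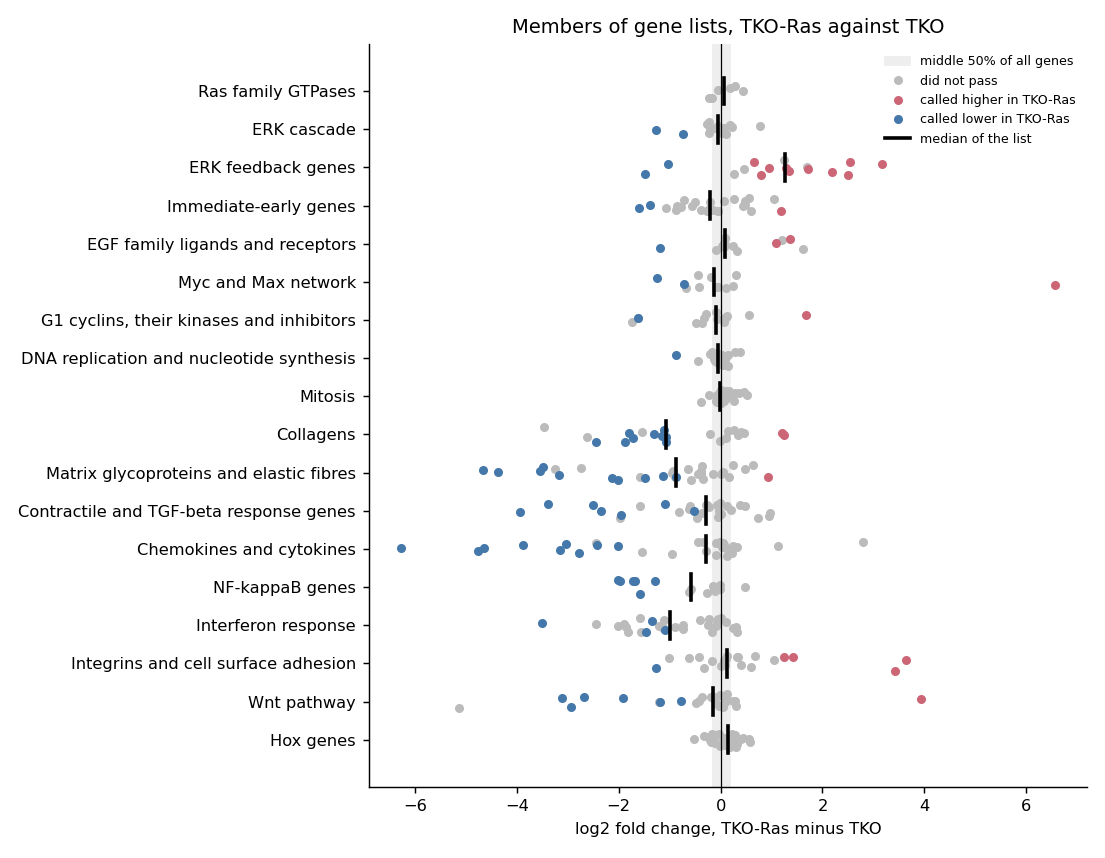
Log2 differences (TKO-Ras minus TKO) of the measured members of 18 gene lists; each point is a gene, coloured by its call, black bars are list medians and the grey band holds the middle 50% of all genes (-0.14 to 0.18). The ERK feedback genes have a median of 1.27, collagens of -1.08 and the mitosis genes of 0.00.

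No measured Hox gene passed, while some factors of embryonic mesenchyme fell, beside 3.19% higher and 4.17% lower among all genes. Of 30 Hox genes 0 passed in limma (2 at an unadjusted p under 0.05), with log2 differences from -0.53 to 0.57, 10 of them being at background in both groups. Of 4 measured genes of the imprinted Dlk1-Dio3 locus 0 passed in limma (also 0 unadjusted), with differences from -0.01 to 0.21 and 2 of the 4 at background in both groups. Of 32 limb and mesenchyme factors 4 fell and 28 did not pass (2 fell without TKO replicate 2 or 3 or TKO-Ras replicate 1 or 3, and 7 without WT replicate 3). Among them were the forkhead genes Foxd1 and Foxf1, Foxd1 from 7.26, 7.20 and 7.43 to 4.54, 4.75 and 5.49 (log2 difference -2.37, adjusted p = 0.00183) and Foxf1 by 1.80 (adjusted p = 0.00044). The other probe set of Foxf1 gave -0.04 (adjusted p = 0.934). Dnmt3a, a DNA methyltransferase, was 7.49, 7.88 and 8.19 in TKO and 6.98, 6.49 and 6.46 in TKO-Ras MEFs (log2 difference -1.21, adjusted p = 0.00957). Of 24 genes of cholesterol and fatty acid synthesis 0 passed in limma (2 unadjusted), with a median of -0.34. Of 19 glycolysis genes 2 rose and 2 fell, with a median of 0.37 (4 rose without WT replicate 2 and 6 without WT replicate 3, and 1 fell without TKO replicate 2 or 3 or TKO-Ras replicate 3). Pfkfb3, which makes an activator of glycolysis, fell at least 3.44-fold (adjusted p = 0.0155, lost without the last 3 arrays named) and the lactate exporter gene Slc16a3 at least 1.29-fold (adjusted p = 0.00737). Hk1, a hexokinase, rose from a mean of 9.50 to 10.16 (adjusted p = 0.00521).

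Receptors of other growth factors moved in both directions. Of 24 measured growth factors and receptors 3 rose (3.19% of all genes) and 3 fell (4.17%). The number that rose was 0 without TKO replicate 2 or 3 or TKO-Ras replicate 1 or 2. It was 1 without TKO-Ras replicate 3 or Rb1KO replicate 1. Pdgfrb, the platelet-derived growth factor receptor of mesenchyme, was 10.71, 11.10 and 11.18 in TKO and 10.18, 9.82 and 9.96 in TKO-Ras MEFs (log2 difference -1.01, adjusted p = 0.00449). Fgfr2, a fibroblast growth factor receptor, was 8.30, 8.70 and 8.81 in TKO and 7.61, 7.30 and 7.78 in TKO-Ras MEFs (log2 difference -1.04, adjusted p = 0.00345). On probe sets without a suffix Fgfr2 showed -0.12 (adjusted p = 0.78). The receptor gene Axl rose by 1.01 (adjusted p = 0.0216), a call lost without TKO replicate 2 or 3 or TKO-Ras replicate 1 or 2 (up to 0.085). Of 16 PI3K, AKT and mTOR genes 1 rose (3.19% of all genes) and 1 fell (4.17%). The kinase gene Mtor had a log2 difference of 0.47 (adjusted p = 0.0473, lost in 10 of the 12 fits, up to 0.17 without TKO replicate 2). Rictor, a part of an mTOR complex, had -1.03 (adjusted p = 0.0316, lost without TKO replicate 2 or 3 or any 1 of the TKO-Ras arrays, up to 0.12).

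In the median, genes of chromosome 4 were shifted upwards and those of chromosome 15 downwards, a pattern looked for after the values of single genes were seen. Of 796 chromosome 4 genes above background in at least 1 of the groups, 171 were called higher (21.5%) and 20 lower (2.51%), and 652 had a log2 difference above 0 (81.9%). Their median log2 difference was 0.28, or 1.21-fold, with quartiles of 0.08 and 0.51. On the 18 chromosomes other than 4 and 15 the medians lay between -0.08 and 0.07, and between 1.86% and 5.13% of genes were called higher. Of 524 chromosome 15 genes 84 were called lower (16%) and 8 higher, 362 had a difference below 0 (69.1%), and the median was -0.19. On the other 18 chromosomes between 3.19% and 9.32% were called lower.

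The shift was seen on each array. With each value set against the gene's mean over the 12 arrays, the chromosome 4 median was 0.25, 0.22 and 0.21 on the TKO-Ras arrays and -0.04, -0.07 and -0.07 on the TKO arrays, and on the WT and Rb1KO arrays it lay between -0.13 and -0.04. The TKO-Ras arrays were thus apart from the other 9. For chromosome 15 it was the TKO arrays that stood apart, at 0.23, 0.21 and 0.21, against 0.00, 0.06 and 0.03 on the TKO-Ras arrays and -0.14 to -0.06 on the WT and Rb1KO arrays. Over the other chromosomes these medians ran from -0.04 to 0.10 on the TKO arrays and from -0.04 to 0.08 on the TKO-Ras arrays. In 8 consecutive groups of 99 or 100 genes along chromosome 4 the median difference was 0.18 to 0.39, and in 8 groups of 65 or 66 genes along chromosome 15 it was -0.40 to -0.02, so that the last group of chromosome 15 lay within the range of the other chromosomes. DNA copy number was not measured on these arrays.

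A part of the calls above lies on these chromosomes. Of the 580 genes called higher 171 are on chromosome 4 (29.5%), and of the 759 called lower 84 are on chromosome 15 (11.1%), so 408 genes with a known chromosome were higher outside chromosome 4 and 672 lower outside chromosome 15. These shares were 23.8% to 32% and 9.15% to 12.5% over all alternatives, although the numbers moved. On chromosome 4 the higher genes were 76 without TKO replicate 2, 90 without TKO replicate 3, 84 without TKO-Ras replicate 1, 102 without TKO-Ras replicate 3 and 267 with array weights. On chromosome 15 the lower genes were 48, 46, 47 and 45 without the same 4 arrays in turn and 127 with array weights. The 171 genes of chromosome 4 called higher had mostly small changes, with a median of 0.66, and 27 of them reached 2-fold. Of the 20 called lower 16 reached 2-fold. Of the called genes named above, Car8, Junos, Jun, E2f2, Plk3, Mtor and Mmp23 are on chromosome 4, and Rspo2 and Rictor are on chromosome 15. Errfi1, which did not pass, is also on chromosome 4. None of the 10 ERK feedback genes that rose lies on either, and neither do Mycn, Cdh11 or any called chemokine.

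**Figure D4:**
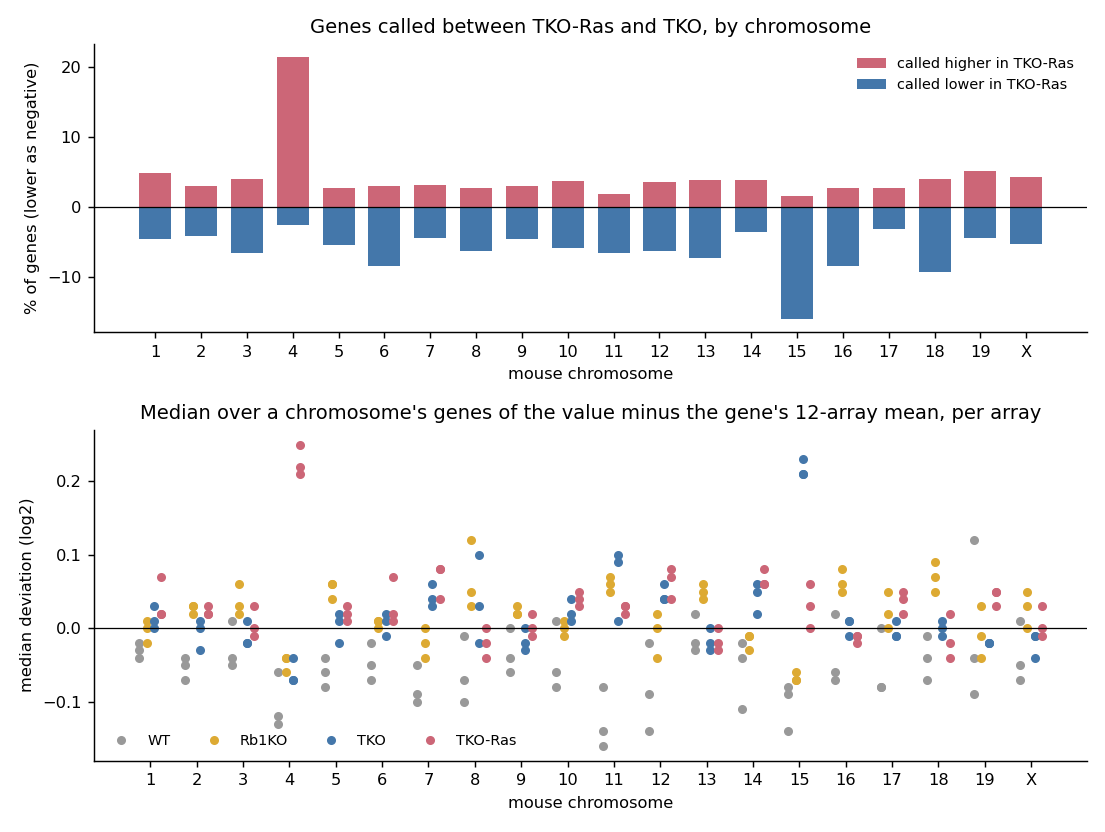
Top, share of the genes of each chromosome called higher (upward bars) or lower (downward bars) in TKO-Ras against TKO, in percent of genes above background. Bottom, per array (points, coloured by genotype), the median over a chromosome's genes of the log2 value minus the gene's mean over 12 arrays; chromosome 4 is raised on the 3 TKO-Ras arrays only (0.21 to 0.25) and chromosome 15 on the 3 TKO arrays (0.21 to 0.23).

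The label of embryonic fibroblasts was checked against marker genes. Of 12 fibroblast markers 5 fell, each by at least 2-fold (2.35% of all genes), 0 rose in limma, and the median was -0.71. The number that fell was 3 without TKO replicate 2 or 3 or without TKO-Ras replicate 1. Of the 12, 9 had a log2 difference below 0, the lowest being Dcn at -3.49. Markers such as Dcn and Col1a2 are also counted in the matrix and collagen lists above, so these counts are not independent. Vim, the mesenchymal intermediate filament, was higher in TKO-Ras MEFs without overlap, at 13.94 to 14.26 in TKO and 14.38 to 14.51 in TKO-Ras MEFs. So was S100a4, at 13.59 to 13.99 and 14.22 to 14.41, while Thy1 and Fap were at background in both groups. The summed level of the 12 was 16.41 to 16.47 on the TKO arrays and 16.05 to 16.12 on the TKO-Ras arrays. In bulk RNA, fewer cells of a type and less RNA per cell cannot be told apart. Of 15 macrophage and leukocyte markers 0 passed in limma (5 unadjusted), and the defining markers Ptprc, Adgre1 and Itgam were at background in both groups.

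Markers of other cell types moved in a few members each. The summed level of 15 epithelial markers, 7 of them at background in both groups, was 9.58 to 10.04 in TKO and 10.73 to 11.32 in TKO-Ras MEFs. The simple-epithelium keratin Krt19 was 9.07, 7.97 and 8.17 in TKO and 10.20, 10.93 and 10.30 in TKO-Ras MEFs (adjusted p = 0.158, or 0.0034 without WT replicate 3). Krt19 was the most abundant of these markers, and the rise of their sum largely follows it. In limma 0 epithelial markers rose and 1 fell (4.17% of all genes). The 15 endothelial markers summed to 11.59 to 11.74 in TKO and 12.17 to 12.44 in TKO-Ras MEFs, with Pecam1, Cdh5 and Tek at background in both groups. Cd34, which fibroblasts also express, had the highest level of the 15, with means of 11.14 in TKO and 12.13 in TKO-Ras MEFs. The rise of the sum therefore largely follows Cd34, which did not pass (log2 difference 0.99, adjusted p = 0.411, or 0.049 without WT replicate 3). In limma 0 of the 15 rose and 1 fell (4.17% of all genes). The endothelial factor gene Erg fell to background and was at least 7.22-fold lower (adjusted p = 0.00761). Of 15 muscle markers 1 rose (3.19% of all genes), Tnnt2, and of 10 adipocyte markers 2 fell (4.17%), Fabp4 and Pparg. Fabp4 had a log2 difference of -2.80 (adjusted p = 0.00281), or 0.04 on probe sets without a suffix. Pparg had -1.14 (adjusted p = 0.0135), a call lost without TKO-Ras replicate 1 or 3 (up to 0.061). The part of such cells in the changes above was not tested.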

How the data were processed

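RNA (100 ng) of 12 MEF samples was hybridised to 1 single-colour expression array each. The authors imported the scans into Partek Genomics Suite 6.5 and deposited log2 RMA values (background correction, quantile normalization and probe summary), without detection calls. Depth is thus replaced by signal over background. Of 45037 non-control probe sets, 34945 had 1 gene symbol and 34741 matched RefSeq (GRCm38.p6, used for names, gene order and promoters; the build behind the arrays is not given in the sources used here). Signals of 44 olfactory receptor probe sets, at their 95th percentile, set the background of 5.13.

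All 45037 probe sets were fitted with limma 3.58.1 (R 4.3.3) on 4 groups of 3 arrays, and p-values were adjusted over all of them by Benjamini-Hochberg. The procedure was tested on simulated data. The genes named were the targeted genes, all members of the Ras, ERK feedback and EGF lists, up to 4 called members of each other list with the largest change, the 15 highest and 15 lowest, and a marker of each other cell type. Further list members were chosen as examples after their values were seen. The comparison and the gene lists were chosen with earlier results of these data known. Alternatives covered the spread model, array weights, a replicate block, the arrays fitted, scaling, filters, probe set choice and leaving out each array.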

Additional observations from a re-analysis of the deposited data

How the results depend on the processing

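The number of genes called moved with the arrays fitted and with their weights. Leaving out 1 array at a time gave 747 to 2144 genes in all, 287 to 913 higher and 452 to 1231 lower, and with a 2-fold change 472 to 810 in all, 149 to 260 higher and 312 to 550 lower. Array weights gave 2268 genes (992 higher, 1276 lower). Without moderation 502 genes were lower and 134 were 2-fold higher. The labels do not say whether same-numbered arrays pair. Their deviations from the group means correlated at -0.054, 0.188 and -0.058, and those of differently numbered arrays at -0.221 to 0.246. With 3 arrays a group these values cannot decide it. A fit with the replicate number as a replicate block called 1294 genes (563 higher, 731 lower). Of 158 named genes 128 were called, and 69 of these kept call and direction in every alternative run. With only probe sets without a suffix the called genes Birc3, Rhof and Fabp4 changed sign, to 0.13, 0.15 and 0.04, and Egfr was -1.44. With the mean of a gene's probe sets Egfr was -0.30 and Adam17 -0.00. Genes close to 0 changed sign as well: Ralb was 0.08 with array weights, and Egf was -0.02 with arrays centred on their median and -0.05 after cyclic loess. Leaving out 1 array at a time gave -0.31 to 0.07 for Rras, -0.26 to 0.18 for Ralb, -0.08 to 0.08 for Egf, -0.00 to 0.16 for Egfr, -0.05 to 0.19 for Erbb4 and -0.01 to 0.17 for Scd1. The cause of these changes was not tested. Signal over background limits 5418 genes that were at background in both groups.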
